A study of Ovis aries with 6 samples.

Results

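The dual-specificity and tyrosine protein phosphatase genes of sheep longissimus dorsi muscle were taken as every gene of the count table whose symbol begins with DUSP or PTPN followed by a number, or with PTPR followed by a letter. The rule gave 56 of 23144 genes, made up of 20 DUSP, 17 PTPN and 19 PTPR genes. DUSP8 was not analysed here. PTPRCAP, which the rule includes, encodes a protein that binds the receptor phosphatase CD45 and is not itself a phosphatase. The muscle came from 1-year-old female sheep of the Qianhua Mutton Merino (QHMM) and the Small Tail Han (STH). QHMM was bred for meat and wool, and STH is a prolific local breed. Husbandry was shared by the breeds (daylight, unrestricted feed and water), the animals were fasted before slaughter, and breed was the only difference set by the design. There were 3 QHMM and 3 STH libraries, each from 1 animal and numbered 1 to 3, and fold changes are of STH vs. QHMM. Animals of a breed were the replicates, so the p-values weigh the breed difference against the spread of these 6 animals within their breeds.

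Protein tyrosine phosphatases remove phosphate that kinases have placed on tyrosine. The classical enzymes are either intracellular (PTPN) or cross the membrane with an outer part that meets other cells or ligands (PTPR). The dual-specificity phosphatases (DUSP) also remove phosphate from serine and threonine, and the MAPK-directed enzymes among them switch off ERK, JNK and p38, the mitogen-activated protein kinases (MAPK). Several MAPK-directed DUSP genes are themselves induced within minutes by the signal they end, as immediate-early genes are. In muscle, PTPN1 is known for ending the signal of the insulin receptor.

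The 6 libraries held 10982191 to 14334544 reads counted on genes (median 13044142). Levels are given either as RPKM, which is per length and allows genes to be compared, or as normalized counts, which are counts scaled by library size with TMM (a method that corrects for genes taking up much of a library) and compare libraries for the same gene. The first principal component (44.05% of the variance) separated the breeds, while the second (19.11%) set QHMM 2 and STH 3 apart from the other libraries. Of the fixed skeletal muscle markers, 8 of 12 were tested, and they summed to between 1604278 and 3259651 normalized counts per library. TNNT3 was listed at 0 in every library, and MB, MYH1 and MYH2 were not analysed here. The slow-fibre markers TNNT1 and MYL2 were called lower in STH. RNA was taken from whole tissue, so fewer cells of a type and less RNA per cell cannot be told apart.

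A gene was called when its FDR in edgeR's quasi-likelihood test was below 0.05 and its fold change above 1.5 (0.585 on the log2 scale). Of the 56 phosphatase genes, 46 had enough reads to be tested. PTPN3 was up-regulated in STH, and it was the only member called. That is 1 of 46 members called higher and 0 called lower, against 1.62% of the 12506 genes tested called higher, 1.83% called lower and 3.45% called in either direction. At an unadjusted p below 0.05 there were 13 members, 8 higher and 5 lower in STH. Over all tested genes the shares at that level were 19.2% in either direction, 9.43% higher and 9.72% lower. The libraries of the breeds did not overlap for 9 members with STH higher and 7 with STH lower, where 13% and 11.7% of all tested genes were in that position. The median log2 fold change was -0.04 over the members and 0.02 over all tested genes, with 21 members above 0 and 25 below. The range ran from -2.82 for PTPRT to 1.98 for PTPRK. With 3 animals against 3, an exact permutation test of a single gene cannot give a two-sided p below 0.10, so all p-values are from the model fitted across genes. Without QHMM 2 and STH 3 none of the 45 members tested was called, and of 12728 genes only 5 were called higher and 6 lower. All 13 with an unadjusted p below 0.05 in the full set kept the sign of their estimate. For those whose breeds did not overlap this could hardly come out otherwise, so it adds no support. Leaving out libraries also lowers the power of the test, and with single libraries left out 131 to 535 genes were called.

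**Figure D1:**
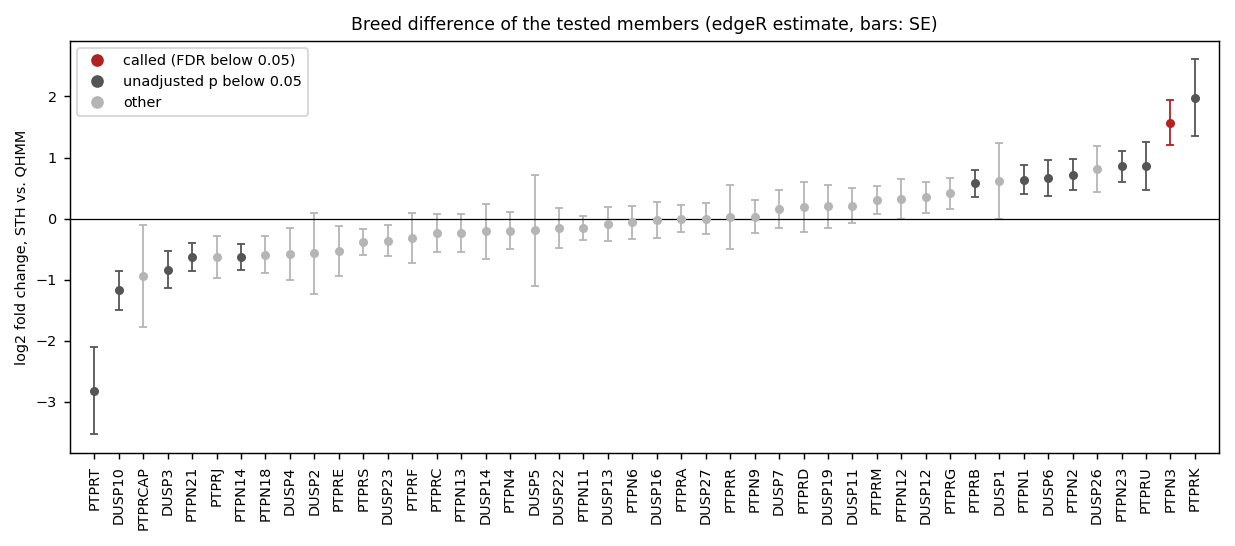
The log2 fold change of STH vs. QHMM is plotted on the vertical axis for each of the 46 tested phosphatase genes, ordered from the lowest to the highest, with bars for the SE of the edgeR estimate. PTPN3 (red) is the only called gene, PTPRT lies lowest at -2.82 and PTPRK highest at 1.98, and most of the other estimates lie within 1 of 0.

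In RPKM, the DUSP genes were the most abundant class and the receptor genes the least. A mean of at least 10 RPKM over the 6 libraries was reached by 6 of 20 DUSP, 3 of 17 PTPN and 1 of 19 PTPR genes, and a mean below 1 RPKM was found for 3, 5 and 10 of them. The median was 5.36 RPKM for DUSP, 3.72 for PTPN and 0.857 for PTPR genes, and 2.33 for the 17644 genes with any value. DUSP1 had the highest mean, 292.7 RPKM, which placed it at rank 262 of those genes, and 33.6 RPKM in QHMM 3 was its one low value beside 298 to 423 in the other 5 libraries. DUSP13 followed with a mean of 219.8 RPKM (191 to 258) and DUSP26 with 219.2 (118 to 396), and the libraries of these 2 genes overlapped. DUSP3 had a mean of 72.6 RPKM and DUSP27 of 53.1, with the DUSP27 libraries all between 45.2 and 57.6. Below these 5 genes came PTPRM at 28.7 RPKM, PTPN21 at 26.6, DUSP7 at 17.0, PTPN11 at 15.2 and PTPN2 at 10.3.

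**Figure D2:**
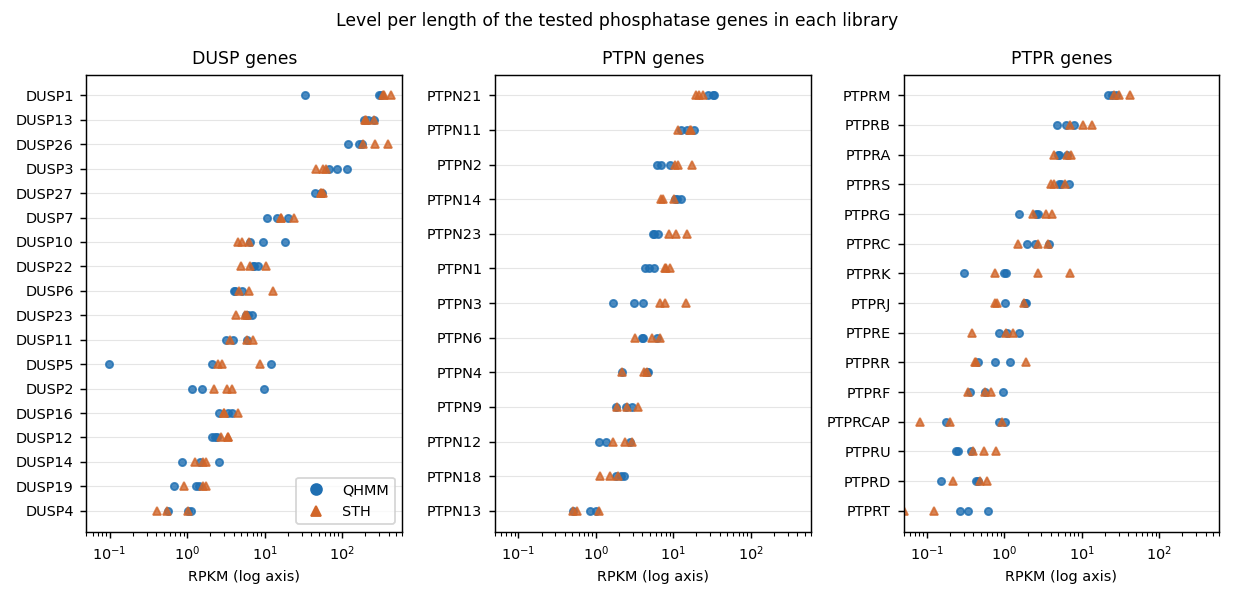
RPKM on a log axis is shown for the tested genes of each class, with 1 symbol per library (circles QHMM, triangles STH) and genes ordered by their mean. The 5 highest DUSP genes lie to the right of the highest PTPN and PTPR genes apart from the low DUSP1 value of QHMM 3, and the STH 2 value of PTPRT, which is 0, is not drawn.

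Phosphatase genes together took 0.205%, 0.19% and 0.147% of the reads counted in QHMM 1, 2 and 3, and 0.243%, 0.219% and 0.221% in STH 1, 2 and 3. These shares did not overlap, but after TMM scaling they did, at 26204, 28809 and 18485 normalized counts in QHMM against 26270, 25710.5 and 33549 in STH. DUSP1 alone supplied 31.0%, 31.5% and 4.58% of the members' reads in QHMM and 34.9%, 31.2% and 31.2% in STH, each with a 95% Wilson interval of at most 0.59 percentage points on either side. These intervals cover counting error only. DUSP13 supplied 12.9% to 22.7%. Without DUSP1 the members' share of the library was 0.141%, 0.13% and 0.14% in QHMM and 0.158%, 0.151% and 0.152% in STH, so that QHMM 3 no longer stood apart from QHMM 1 and QHMM 2. These shares did not overlap between the breeds either, but the TMM-scaled sums without DUSP1 did, at 18089, 19746 and 17638 normalized counts in QHMM and 17094, 17685 and 23082 in STH.

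Among the 8 tested MAPK-directed DUSP genes none was called, and 1 was higher (DUSP6) and 1 lower (DUSP10) in STH at an unadjusted p below 0.05. Their median log2 fold change was -0.11, with 3 above 0 and 5 below. DUSP1 encodes MKP-1, the nuclear phosphatase of p38 and JNK that glucocorticoids and stress induce. It had 8115, 9063 and 847 normalized counts in QHMM 1, 2 and 3 and 9176, 8026 and 10467 in STH. Apart from QHMM 3 the libraries lay close together and overlapped between the breeds. The estimate was 0.62 (SE 0.62) on the log2 scale with an edgeR FDR of 0.635, and it was 0.11 without QHMM 3. DUSP2, DUSP4 and DUSP5 are the other nuclear, inducible enzymes of this group. DUSP2 had 88.4, 16.4 and 10.2 normalized counts in QHMM and 28.1, 26.7 and 23.5 in STH. The QHMM values spanned both sides of the narrow STH range, and the log2 estimate of -0.57 (SE 0.67) turned to 0.96 without QHMM 1. DUSP5, which acts on ERK in the nucleus, had 126.7, 25.8 and 1.02 normalized counts in QHMM and 76.7, 26.7 and 31.4 in STH. Only 1 read was counted in QHMM 3 and 142 in QHMM 1. The DUSP5 estimate, -0.19 (SE 0.91) on the log2 scale, took the other sign without QHMM 1 (1.77) and, close to 0, without STH 2 (0.05) or STH 3 (0.01). DUSP4 had 31.2, 18.7 and 27.4 normalized counts in QHMM and 23.9, 13.9 and 13.5 in STH, with an estimate of -0.58 (SE 0.42) and overlapping libraries.

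QHMM 3 was the lowest library for DUSP1, DUSP2, DUSP5 and DUSP6. That is 50% of the 8 tested MAPK-directed DUSP genes, against 16.8% of all tested genes. DUSP1 and DUSP5 stood far below the next library, at 847 against 8026 in STH 2 and 1.02 against 25.8 in QHMM 2 (normalized counts). The gap to QHMM 2, the next library, was smaller for DUSP2 (10.2 against 16.4) and DUSP6 (138 against 172). The immediate-early genes, which cells switch on within minutes of a stimulus, stood lowest in QHMM 3 for 10 of the 11 tested. Their summed level was 78921, 34883 and 958 normalized counts in QHMM 1, 2 and 3 and 57642, 18294 and 32840 in STH 1, 2 and 3. FOS stood at 70.0 normalized counts in QHMM 3 and at 8481 to 38553 in the other 5 libraries, and FOSB was at 0 in QHMM 3. The part of this in the DUSP1, DUSP2, DUSP5 and DUSP6 values was not tested. None of the 11 immediate-early genes was called between the breeds, and 1 was higher and 1 lower at an unadjusted p below 0.05. DUSP1 is also a target of the glucocorticoid receptor. Of 12 glucocorticoid-responsive genes tested, 9 were called higher in STH, with summed levels of 6277 to 10339 normalized counts for QHMM against 51453 to 67205 for STH. Most of the STH sums came from PDK4, with 34016.5, 41043 and 38670 normalized counts in STH 1, 2 and 3. The part of this response in the DUSP1 values was not tested. The spread within a breed, as the coefficient of variation of the normalized counts, was 74.8% in QHMM and 13.2% in STH for DUSP1, 113% and 8.9% for DUSP2, and 130% and 61.5% for DUSP5. Over all 46 tested members the median was 24.1% in QHMM and 23.2% in STH, and over all tested genes 20.7% and 23.9%.

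**Figure D3:**
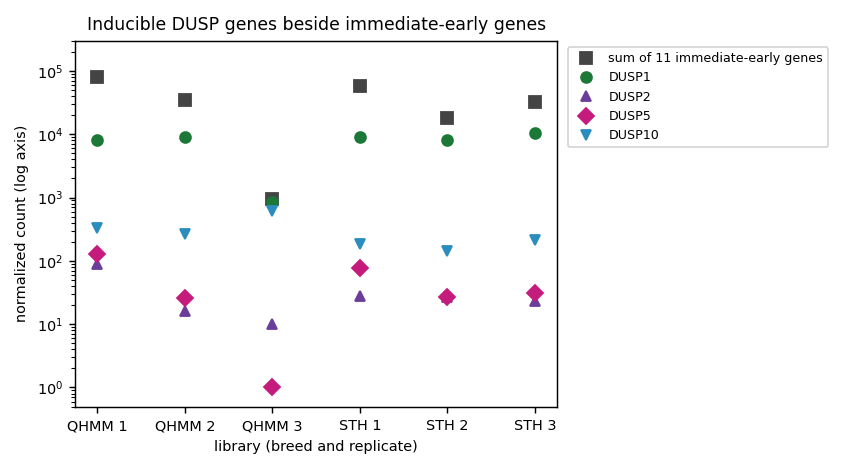
Normalized counts on a log axis are plotted for the 6 libraries, with squares for the sum of the 11 tested immediate-early genes and other symbols for DUSP1, DUSP2, DUSP5 and DUSP10. The squares, DUSP1, DUSP2 and DUSP5 are at their lowest in QHMM 3, where the immediate-early sum was 958, and DUSP10 is at its highest there, at 609.

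DUSP10 encodes MKP-5, a phosphatase of JNK and p38. It had 331, 265 and 609 normalized counts in QHMM 1, 2 and 3 and 181.5, 143 and 211 in STH. Every STH library lay below every QHMM library, and the highest value was in QHMM 3, the library in which DUSP1, DUSP2, DUSP5 and DUSP6 were lowest. The log2 fold change was -1.17 (SE 0.32), with an edgeR p of 0.00388 and an FDR of 0.0743, so DUSP10 was not called. It passed with DESeq2 (FDR 0.0121) and when genes with low counts were kept (FDR 0.0257), and the estimate shrank to -0.74 without QHMM 3. DUSP16, another tested JNK and p38 phosphatase, had 89.3, 158 and 114 normalized counts in QHMM and 87.5, 143 and 123 in STH. Its libraries covered the same range in both breeds, and the log2 estimate was -0.03 (SE 0.30).

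DUSP6, DUSP7 and DUSP9 encode the cytoplasmic phosphatases of ERK. DUSP6 had 178.5, 172 and 138 normalized counts in QHMM and 379.6, 199.8 and 192 in STH. The STH libraries were all above the QHMM libraries, most of all STH 1. The estimate of 0.66 (SE 0.30) had an edgeR p of 0.0496 and an FDR of 0.26, and it was 0.25 without STH 1. DUSP7 had 373, 832 and 493 normalized counts in QHMM and 477, 753 and 662 in STH, with an estimate of 0.16 (SE 0.31) and overlapping libraries. DUSP9 had no read in any library, which allows up to 3 reads in each. The remaining MAPK-directed genes are classical phosphatases that hold MAPKs through a kinase interaction motif. PTPRR had 33.0, 23.4 and 49.7 normalized counts in QHMM and 68.5, 17.1 and 21.3 in STH, and its estimate of 0.03 (SE 0.53) moved between -0.90 and 0.35 as single libraries were left out. PTPN7, an enzyme of blood cells, had 9, 6 and 3 reads in QHMM and 5, 1 and 1 in STH. PTPN5, known from brain, had at most 2 reads in any library, and neither gene was tested.

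**Figure D4:**
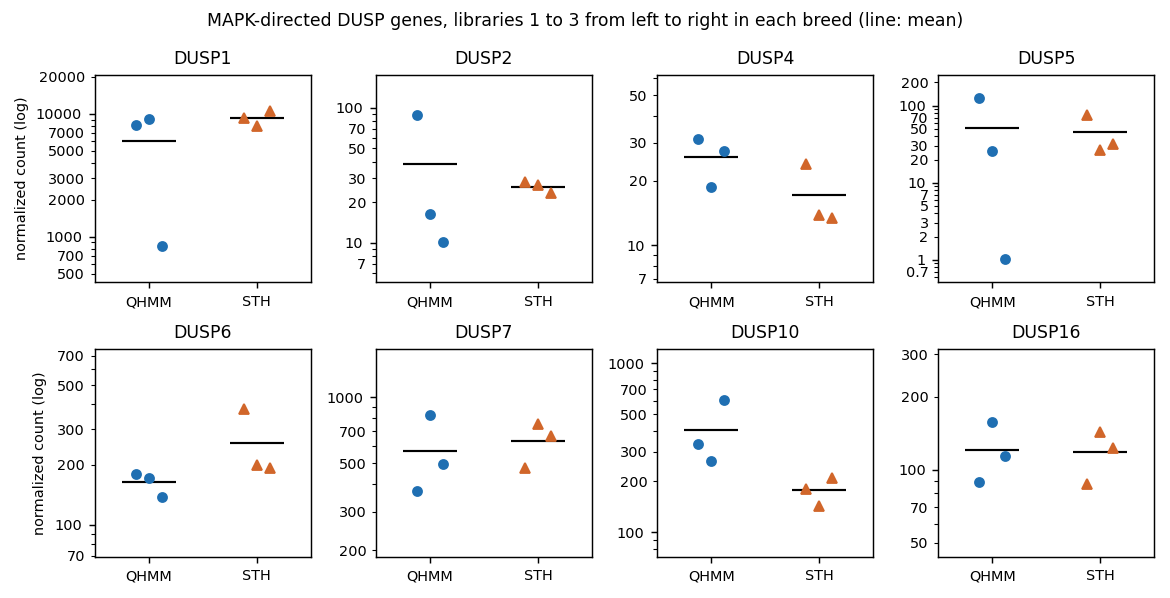
Normalized counts on log axes are shown for the 8 tested MAPK-directed DUSP genes, with circles for QHMM, triangles for STH, libraries 1 to 3 from left to right and a line at each mean. Breeds overlap for DUSP1, DUSP2, DUSP4, DUSP5, DUSP7 and DUSP16, STH lies above QHMM for DUSP6 and below it for DUSP10, and QHMM 3 is the low point of DUSP1 and DUSP5.

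The pathway around these enzymes was taken as a list of 51 MAPK cascade genes (13 MAP kinases, the rest their upstream kinases, scaffolds and downstream kinases), of which 49 were found by symbol and 44 were tested. MAPK4 was the only one called. This atypical MAPK had 91.0, 38.6 and 38.6 normalized counts in QHMM and 1.65, 1.07 and 7.84 in STH. The breeds lay far apart, at -4.02 (SE 0.66) on the log2 scale and an edgeR FDR of 0.0135. At an unadjusted p below 0.05, 5 cascade genes were higher and 2 lower in STH, and the median log2 fold change was 0.05. A second list held 35 other genes of the phosphatase superfamily, such as the CDC25, myotubularin and EYA genes. None of the 30 tested was called, 4 were higher and 3 lower at an unadjusted p below 0.05, and the median was -0.10.

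The MAPK-directed group was a fixed list, and DUSP3 and DUSP26 stood outside it although they also act on MAPKs. The DUSP genes outside this list, often called atypical, included 4 of the 5 most abundant members in RPKM. None of the 10 tested was called, and DUSP3 was the only one with an unadjusted p below 0.05. DUSP3 (VHR) is a small phosphatase of ERK and JNK. It had 731, 1463.5 and 894 normalized counts in QHMM and 508, 452 and 772 in STH. The breeds overlapped, with QHMM 2 the highest library and STH 3 above QHMM 1. The log2 fold change was -0.83 (SE 0.30), with an edgeR p of 0.0195 and an FDR of 0.165, and it was -0.49 without QHMM 2. DUSP26, which acts on p38, had 960.4, 1729 and 1344 normalized counts in QHMM and 1271, 2009.6 and 3825 in STH. STH 3 stood far above the other libraries, and the estimate of 0.82 (SE 0.38, edgeR FDR 0.272) was 0.29 without it. The DUSP13 locus encodes a form restricted to skeletal muscle, and it had 5114, 4504 and 4189 normalized counts in QHMM and 3389.7, 3577 and 6025 in STH. DUSP27, a muscle protein predicted to lack phosphatase activity, had 1913, 2744 and 2236 in QHMM and 1899, 2107 and 2889.6 in STH. Their estimates were -0.09 (SE 0.27) and 0.00 (SE 0.25) on the log2 scale, and in both genes STH 3 was the highest library. Of the less abundant genes, DUSP12 was without overlap higher in STH (0.35, SE 0.25) and DUSP23 lower (-0.36, SE 0.25), with edgeR FDRs of 0.495 and 0.477. DUSP11, an RNA phosphatase, DUSP14, DUSP19 and DUSP22 had estimates between -0.21 and 0.21 and overlapping libraries.

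Among the 13 tested PTPN genes, 4 were higher and 2 lower in STH at an unadjusted p below 0.05, and PTPN3 was called. PTPN3 (PTPH1) belongs to the enzymes that carry a FERM domain, which ties proteins to the membrane skeleton. It had 83.0, 185.0 and 199.0 normalized counts in QHMM 1, 2 and 3 and 332.5, 657 and 398 in STH 1, 2 and 3. All 3 STH libraries were above all 3 QHMM libraries, with QHMM 1 lowest and STH 2 highest. The mean was 156 ± 63.3 in QHMM and 462 ± 172 in STH (SD, n = 3 each), a log2 fold change of 1.57 (SE 0.36) with an edgeR p of 0.00124 and an FDR of 0.0435. Per length the mean was 2.98 RPKM in QHMM and 9.74 in STH. With DESeq2 the FDR was 0.00111. Leaving out single libraries kept the estimate between 1.22 and 1.80, but the call held only without STH 1 (FDR 0.0296) and was lost without QHMM 1, QHMM 2, QHMM 3, STH 2 or STH 3, at FDRs of 0.107, 0.0907, 0.0772, 0.134 and 0.0638. With QHMM 2 and STH 3, the libraries that stood apart, left out together, the estimate was 1.80 and the FDR 0.178, and limma on RPKM, which does not scale by TMM, gave FDRs of 0.0506 to 0.143.

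The other FERM-domain genes lay on the other side of 0. PTPN21 (PTPD1), the most abundant PTPN gene, had 958, 1312.5 and 1133 normalized counts in QHMM and 709.6, 614 and 872 in STH. PTPN14 (Pez), which binds the growth regulator YAP, had 666, 715 and 556 in QHMM and 460.4, 334 and 458 in STH. The breeds did not overlap for either gene, and each had a log2 fold change of -0.63 (SE 0.23 and 0.22) with edgeR FDRs of 0.156 and 0.148. PTPN4 and PTPN13 overlapped between the breeds, with log2 estimates of -0.20 (SE 0.30) and -0.24 (SE 0.31). So 1 of the 5 FERM-domain genes was called higher and the other 4 had estimates below 0, 2 of them at an unadjusted p below 0.05.

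PTPN1 (PTP1B) and PTPN2 (TC-PTP) are close relatives that act on the insulin receptor and on JAK kinases. PTPN1 had 107, 146 and 139 normalized counts in QHMM and 194, 183 and 233 in STH. PTPN2 had 226, 180.3 and 166.5 in QHMM and 243, 391 and 311.5 in STH. Both were without overlap higher in STH, at log2 fold changes of 0.64 (SE 0.24) and 0.72 (SE 0.25), with edgeR p of 0.0227 and 0.0152 and FDRs of 0.177 and 0.145, and neither was called. PTPN23 (HD-PTP), which sorts receptors in endosomes, had 137, 187 and 141 normalized counts in QHMM and 233, 347 and 261 in STH. Again no STH library fell within the QHMM range, and the estimate of 0.86 (SE 0.25) had an edgeR p of 0.00592 and an FDR of 0.0903. The SH2-domain enzyme PTPN11 (SHP-2), which carries signals from growth factor receptors to RAS and ERK, had 736, 732 and 905.5 normalized counts in QHMM and 696, 767 and 671 in STH. Its libraries overlapped, at a log2 estimate of -0.15 (SE 0.20). PTPN6 (SHP-1), the SH2-domain enzyme of blood cells, gave -0.06 (SE 0.27), and PTPN9, PTPN12 and PTPN18 gave 0.03, 0.32 and -0.59 (SE 0.28, 0.33 and 0.30). Of these only PTPN18 was without overlap, lower in STH, at an edgeR FDR of 0.314.

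**Figure D5:**
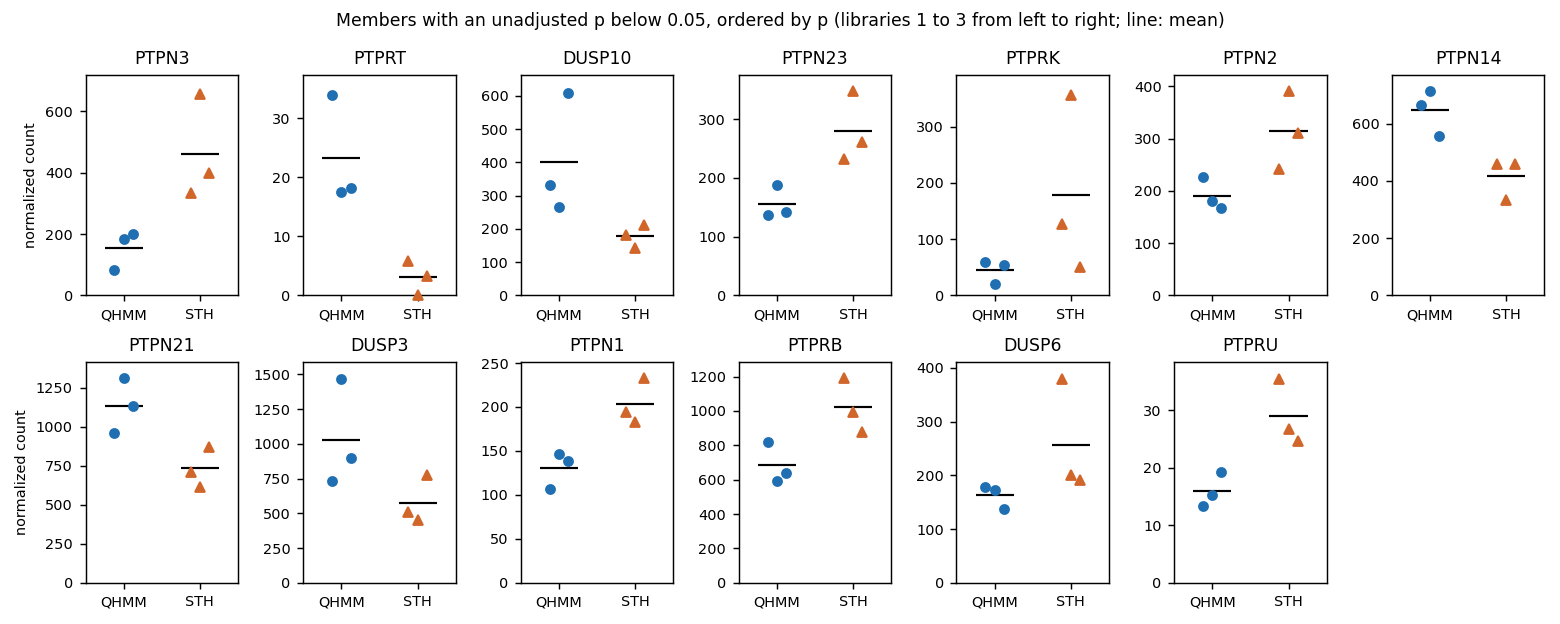
Normalized counts on linear axes starting at 0 are shown for the 13 phosphatase genes with an unadjusted edgeR p below 0.05, ordered by p, with circles for QHMM, triangles for STH, libraries 1 to 3 from left to right and a line at each mean. The breeds are apart in 11 panels and overlap in those of PTPRK and DUSP3, and only PTPN3 was called.

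Of the 15 tested receptor genes none was called, while 3 were higher and 1 lower in STH at an unadjusted p below 0.05. Of these 4 genes, 3 belong to the adhesive MAM-domain family, whose outer parts bind the same protein on a neighbouring cell. PTPRT had 33.9, 17.6 and 18.3 normalized counts in QHMM and 5.78, 0 and 3.36 in STH. These came from 38, 15 and 18 reads in QHMM and 7, 0 and 3 in STH. All STH values were below those of QHMM, and the log2 fold change of -2.82 (SE 0.71) had an edgeR p of 0.00238 and an FDR of 0.0582. It passed with DESeq2 (FDR 0.0122), with genes of low counts kept (FDR 0.0231) and without STH 1 (FDR 0.0493). PTPRK had 58.9, 19.9 and 54.8 normalized counts in QHMM and 127, 357 and 50.4 in STH. STH 2 stood highest, and STH 3 lay inside the QHMM range. Its estimate of 1.98 (SE 0.62) had an edgeR FDR of 0.113, and it passed with DESeq2 (FDR 0.0082), with genes of low counts kept (FDR 0.0274) and without STH 3 (2.42, FDR 0.0396), while without STH 2 it was 0.97. PTPRU had 13.4, 15.2 and 19.3 normalized counts in QHMM and 35.5, 26.7 and 24.6 in STH. The breeds were apart at a log2 fold change of 0.86 (SE 0.39), with an edgeR p of 0.0496 and an FDR of 0.26. PTPRM, the most abundant receptor gene and the fourth of this family, had 1705, 1627 and 1481 normalized counts in QHMM and 2185, 1507.5 and 2242 in STH. STH 2 fell within the QHMM range, and the estimate was 0.30 (SE 0.23).

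PTPRB (VE-PTP) is the receptor phosphatase of endothelial cells. It had 818, 594 and 637.5 normalized counts in QHMM and 1195, 992.5 and 875 in STH. The STH libraries were all higher, at a log2 fold change of 0.58 (SE 0.22), an edgeR p of 0.0255 and an FDR of 0.187. None of the 6 tested endothelial markers was called or had an unadjusted p below 0.05, and their sums overlapped, at 8690 to 9427 normalized counts for QHMM against 9303 to 10794 for STH. Their estimates were above 0 for 3 and below 0 for 3, and only VWF was without overlap, higher in STH (0.40, SE 0.22). KDR, TEK, TIE1 and CLDN5 were not analysed here, and the part of endothelial cells in the PTPRB values was not tested. PTPRA, which activates SRC kinases, had 244, 231 and 186 normalized counts in QHMM and 232, 228 and 198 in STH, and its log2 estimate was -0.01 (SE 0.22). Among the LAR-type receptors, which bind matrix proteoglycans, PTPRS had 528, 472 and 405 normalized counts in QHMM and 401, 309.8 and 365 in STH. It was without overlap lower in STH, at -0.39 (SE 0.21) and an edgeR FDR of 0.356. PTPRF and PTPRD overlapped, at -0.32 (SE 0.41) and 0.19 (SE 0.41). PTPRG, with an outer part like carbonic anhydrase, had 161, 111 and 150.2 normalized counts in QHMM and 172.5, 224 and 167 in STH, without overlap, at 0.41 (SE 0.25) and an edgeR FDR of 0.401. PTPRE and PTPRJ gave estimates of -0.54 (SE 0.41) and -0.63 (SE 0.35) with overlapping libraries.

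The leukocyte phosphatase PTPRC (CD45) had 207, 164 and 106 normalized counts in QHMM and 170.0, 136 and 97.5 in STH. Its libraries overlapped at a log2 estimate of -0.24 (SE 0.31). PTPRCAP, the partner of CD45, had 9.82, 14.1 and 2.03 normalized counts in QHMM and 9.08, 2.14 and 1.12 in STH, and its estimate of -0.94 (SE 0.83) was the third lowest of the members. Of the 12 tested leukocyte markers none was called and 5 were lower in STH at an unadjusted p below 0.05. The list summed to 1547 to 2090 normalized counts for QHMM against 1157 to 1692 for STH, which overlap. Fibroblast markers (4 tested, none called) summed to 10995 to 17833 normalized counts for QHMM against 4765 to 9790 for STH. Adipocyte markers (5 tested, 4 called lower in STH) summed to 1492 to 4986 for QHMM and 669 to 1033 for STH. All 7 Schwann cell markers, of which 5 were tested and none called, summed to 550.3 to 936 for QHMM and 447 to 930 for STH. Of the red cell markers, HBB and HBA1 were not analysed here, and ALAS2 and SLC4A1 had too few reads to be tested. The part of these lists in the members' values was not tested.

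Beside DUSP9, the 9 members with too few reads for a test were DUSP18, PTPN5, PTPN7, PTPN20B, PTPN22, PTPRH, PTPRN, PTPRQ and PTPRZ1, each with at most 11 reads in any library. PTPN22, a phosphatase of lymphocytes, had 8, 6 and 4 reads in QHMM and 4, 3 and 0 in STH. PTPN20B was read in STH 1 (2 reads) and STH 3 (3 reads) and in no QHMM library, and PTPRN, of secretory granules, in QHMM 1, QHMM 2 and STH 1. A difference between the breeds was not detectable at this depth for these genes.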

How the data were processed

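Per the labels and the study's methods, poly(A) RNA was fragmented with RNase III, ligated to adaptors (Ion Total RNA-Seq Kit v2) and read on an Ion Proton. The authors mapped the reads to the sheep genome (Oar 3.1), kept unique positions and deposited raw counts per gene. They also deposited RPKM values, which scale the counts by gene length and library total. The upper-quartile correction named in the study's methods could not be seen in them. The aligner, the counting program and its use of strand are not given in the sources used here, and for DUSP11, PTPRD and PTPRJ, which overlap another protein-coding gene in the RefSeq annotation, reads could belong to either. In that annotation, made on another assembly, 53 of the 56 symbols were found. The RPKM rows of 25 genes whose names had become dates were left out.

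Counts were tested in R 4.3.3 with edgeR 4.0.16 (TMM scaling, the filterByExpr filter by breed, and the quasi-likelihood F test of a model with no term but breed, all 6 libraries), with Benjamini-Hochberg adjustment (FDR) over 12506 genes. Calls needed an FDR below 0.05 and a fold above 1.5, the thresholds of the study, whose program EBSeq was not used here. The SE of an edgeR estimate is the absolute log2 fold change divided by the square root of the F statistic. Normalized counts are counts divided by the effective library size (total times TMM factor) and multiplied by its mean. The method was tested on simulated data. Alternatives were DESeq2 1.42.0, other normalizations, filters and thresholds, robust dispersions, a replicate block, limma 3.58.1 on log2(RPKM + 1) and log2(RPKM + 0.1), each library left out, and, added after seeing the data, QHMM 2 and STH 3 left out together. Plots were drawn with matplotlib 3.10.9.

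The members, gene lists and rules were chosen with earlier results of these data known. A member was described with its value in every library if it was called, had an unadjusted p below 0.05, was MAPK-directed, was among the 5 highest of its class by mean RPKM, or was among the 3 largest log2 fold changes in either direction. Other members, and called genes of the MAPK list, were given in less detail. PTPN7, PTPN20B, PTPN22, PTPRC and PTPRN were described further after their values were seen.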

Additional observations from a re-analysis of the deposited data

How the results depend on the processing

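The number of members called higher in STH was 1, and it was 2 with DESeq2 or with genes of low counts kept, and 0 with limma on log2(RPKM + 1), on log2(RPKM + 0.1) or on log2(RPKM + 1) without a filter, at an FDR of 0.01, and with QHMM 2 and STH 3 left out together. Members called lower were 0, and 2 with DESeq2, with low counts kept and with the replicate block. Leaving out single libraries gave 0 to 1 called higher and 0 to 1 called lower. Of all genes 432 were called, 956 with DESeq2, 806 with low counts kept, 78 with limma on log2(RPKM + 1) without a filter, 41 at an FDR of 0.01, 11 with QHMM 2 and STH 3 left out together, and 131 to 535 with single libraries left out. The sources used here do not say whether the replicate numbers pair the animals. Deviations of same-numbered libraries correlated at 0.23, -0.04 and -0.13, and the highest correlation was 0.29, between QHMM 2 and STH 3. With the replicate numbers as a block, 457 genes were called, and PTPRT (FDR 0.0448) and DUSP10 (FDR 0.0468) joined PTPN3. The limma scalings with a filter moved the median of all genes to 0.12 and 0.14 on the log2 scale and that of the members to 0.09 and 0.11. PTPN3, the called member, kept its sign in every alternative, which its libraries without overlap made all but certain. Its call was lost with limma, at an FDR of 0.01, with QHMM 2 and STH 3 left out together and in most fits without a single library. Among the members described in every library, uncalled estimates that took the other sign (log2) were DUSP5 with limma on log2(RPKM + 1) (0.51, also without a filter), on log2(RPKM + 0.1) (1.22) and the replicate block (0.50), DUSP2 in the same limma settings (0.039, 0.039 and 0.18), DUSP16 (0.075, 0.075 and 0.093) and PTPRA (0.10, 0.10 and 0.11). With QHMM 2 and STH 3 left out together DUSP16 gave 0.17, PTPRA 0.089 and DUSP27 -0.062. DUSP27, at 0.00, also gave -0.015 with DESeq2, -0.03 at 10 counts or more in every library, -0.013 with low counts kept, -0.007 with the replicate block and -0.025 with upper-quartile normalization, and under the block PTPRA gave 0.00 and PTPRR -0.15. With single libraries left out, DUSP13 ran from -0.40 to 0.047, DUSP16 from -0.23 to 0.22, DUSP2 from -1.02 to 0.96, DUSP27 from -0.20 to 0.15, DUSP5 from -0.85 to 1.77, DUSP7 from -0.093 to 0.55, PTPRA from -0.11 to 0.065 and PTPRR from -0.90 to 0.35, and of the other members DUSP14, DUSP22, PTPN6, PTPN9, PTPRD and PTPRF also took either sign. The causes of these changes were not tested. The SE was large for some members with few reads, such as PTPRCAP (0.83), but smaller for PTPRU (0.39). It was also large for DUSP1 (0.62), the member with the highest mean RPKM.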
